A study of Rattus norvegicus with 6 samples.

Results

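The miR-183 cluster consists of miR-183, miR-96 and miR-182, small RNAs that are cut from neighbouring hairpins on the same strand and are known from sensory organs. Its members were taken by name: every row of the deposited tables whose identifier is an arm of rat miR-183, miR-96 or miR-182. This gave 3 rows, rno-miR-183-5p, rno-miR-182 and rno-miR-96-5p, of 1071 rows in all and of 552 rows of known rat miRNAs. The 3' arms of miR-183 and miR-96, which RefSeq lists, had no row under those names. The libraries were made from wild-type, untreated fibroblasts of the rat sciatic nerve. There were 3 libraries from RNA of the extracellular vesicles (EV) that these cells release, and 3 from RNA inside the cells (Intracellular), which are the controls of the study. All 6 were labelled as the same batch, and neither the rat strain and age nor the way the vesicles were isolated is given in the sources used here. Nothing in the labels ties a replicate to a separate culture or animal, so each p-value reflects the spread among these libraries alone, which could be technical.

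A mature miRNA guides a silencing complex to messenger RNAs that pair with its seed, bases 2 to 8 from the 5' end. The miR-183 cluster is transcribed as a single precursor and is highly expressed in hair cells of the inner ear, photoreceptors and sensory neurons of the dorsal root ganglia. Mutations in the seed of miR-96 cause hearing loss in mice and humans, and the cluster in sensory neurons takes part in mechanical pain. Fibroblasts are not among the cells for which the cluster is best known.

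The mature sequences are shown because the seeds of the members differ by only a few bases. They are the RefSeq sequences (build GRCr8), printed 5' to 3' with the seed in capitals, and each was identical to the sequence deposited with the counts.
miR-183-5p: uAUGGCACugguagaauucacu
miR-96-5p: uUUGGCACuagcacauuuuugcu
miR-182: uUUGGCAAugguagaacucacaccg

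The seeds of the 3 members are close but not equal. With positions counted from the 5' end and the first-named miRNA's base first, the seed of miR-183-5p differs from that of miR-96-5p by A2U, and the seed of miR-182 differs from that of miR-96-5p by A8C. miR-183-5p and miR-182 differ at both places (A2U and C8A). Over the whole molecule, compared without gaps, miR-183-5p and miR-182 have the same base at 18 of 22 positions, miR-183-5p and miR-96-5p at 13 of 22, and miR-182 and miR-96-5p at 12 of 23. All 3 carry UGGCA at positions 3 to 7. This motif, searched at those positions of the mature strand, was found in 3 of 693 RefSeq rat mature miRNAs (0.433%), which are the 3 members themselves. Among the 659 rows with a deposited sequence it was also found in the predicted novel412_star. No other RefSeq rat miRNA, and no other row with a deposited sequence, has the full seed of any member. How reads that match several miRNAs were divided is not given in the sources used here.

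In RefSeq's GRCr8 annotation the genes lie on the minus strand of chromosome 4. Mature miR-183-5p is at chr4:59756106-59756127, miR-96-5p at chr4:59755901-59755923 and miR-182 at chr4:59752249-59752273. These positions describe the loci only, since the authors' build was Rnor_6.0. The hairpins of Mir183 and Mir96 are separated by 97 bases and those of Mir96 and Mir182 by 3533, and the whole cluster spans 3908 bases. miR-183-5p occupies bases 27 to 48 of a 110-base hairpin and miR-96-5p bases 24 to 46 of a 106-base hairpin. The annotated Mir182 hairpin has only 62 bases and ends 3 bases after the mature sequence, and the name rno-miR-182 carries no arm.

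All 3 members were higher in EV than in Intracellular libraries, at low counts. Levels are given as CPM, the count of a miRNA scaled to 1000000 counts per library. The libraries held 81211 to 105578 counts in EV and 1839047 to 8859302 in Intracellular, so that 1 count stood for 9.47 to 12.3 CPM in EV and for 0.113 to 0.544 CPM inside the cells. Intervals on counts are exact 95% Poisson intervals. They cover at most counting error. Since PCR copies of a molecule are counted again, they can be too narrow even for that. CPM are shares of a library and not amounts per vesicle or cell, and in these bulk libraries fewer cells with a miRNA and less of it per cell cannot be told apart.

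miR-183-5p was counted 19, 24 and 15 times in EV replicates 1, 2 and 3, which is 234.0, 227.3 and 162.5 CPM. In Intracellular replicates 1, 2 and 3 it was counted 26, 92 and 218 times, which is 14.14, 27.77 and 24.61 CPM. The groups did not overlap, and the lowest EV library was 5.85 times the highest Intracellular library. The Poisson intervals of the 3 EV libraries overlapped one another, with 90.93 to 268.0 CPM in the lowest and 140.9 to 365.4 CPM in the highest. The mean was 207.9 ± 39.5 CPM for EV and 22.17 ± 7.13 CPM inside the cells (SD, n = 3). At the pooled Intracellular level, 6.69 counts would have been seen over the 3 EV libraries, against the 58 observed. In EV it ranked 134, 134 and 145 among the known miRNAs, of which 322 to 338 had counts. Inside the cells it ranked 225, 220 and 218, of 423 to 525 with counts.

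miR-182, whose reported functions in injured sciatic nerve concern Schwann cells, had the highest CPM of the 3 members in all 6 libraries. Adapter ligation favours some sequences over others, so an order of counts between different miRNAs need not be their order of abundance. Its EV counts were 23, 31 and 20, or 283.2, 293.6 and 216.6 CPM, in replicates 1, 2 and 3. The Intracellular counts were 54, 130 and 350, or 29.36, 39.24 and 39.51 CPM. As for miR-183-5p, EV replicate 3 and Intracellular replicate 1 were the lowest of their groups, and the groups did not overlap. The mean was 264.5 ± 41.8 CPM for EV and 36.04 ± 5.78 CPM inside the cells (SD, n = 3), a ratio of 7.34. The pooled Intracellular level would have given 10.6 EV counts, where 74 were seen. Its rank among known miRNAs was 121 to 132 in EV and 185 to 205 inside the cells.

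miR-96-5p had the lowest CPM of the 3. It was counted 2, 2 and 4 times in EV replicates 1, 2 and 3 (24.63, 18.94 and 43.32 CPM) and 4, 25 and 62 times in Intracellular replicates 1, 2 and 3 (2.18, 7.55 and 6.998 CPM). No EV library overlapped the Intracellular ones, but the Poisson intervals of EV replicates 1 and 2, 2.98 to 88.96 and 2.29 to 68.4 CPM, contain the values of Intracellular replicates 2 and 3. The mean was 28.96 ± 12.8 CPM for EV and 5.57 ± 2.96 CPM inside the cells (SD, n = 3). Over all libraries of a group, 8 EV counts stood against an expectation of 1.81 from the Intracellular level. The ratio of the pooled levels, with its exact 95% counting interval, was 4.41 (1.85 to 9.07). The same ratio was 8.67 (6.44 to 11.5) for miR-183-5p and 6.96 (5.38 to 8.88) for miR-182.

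**Figure D1:**
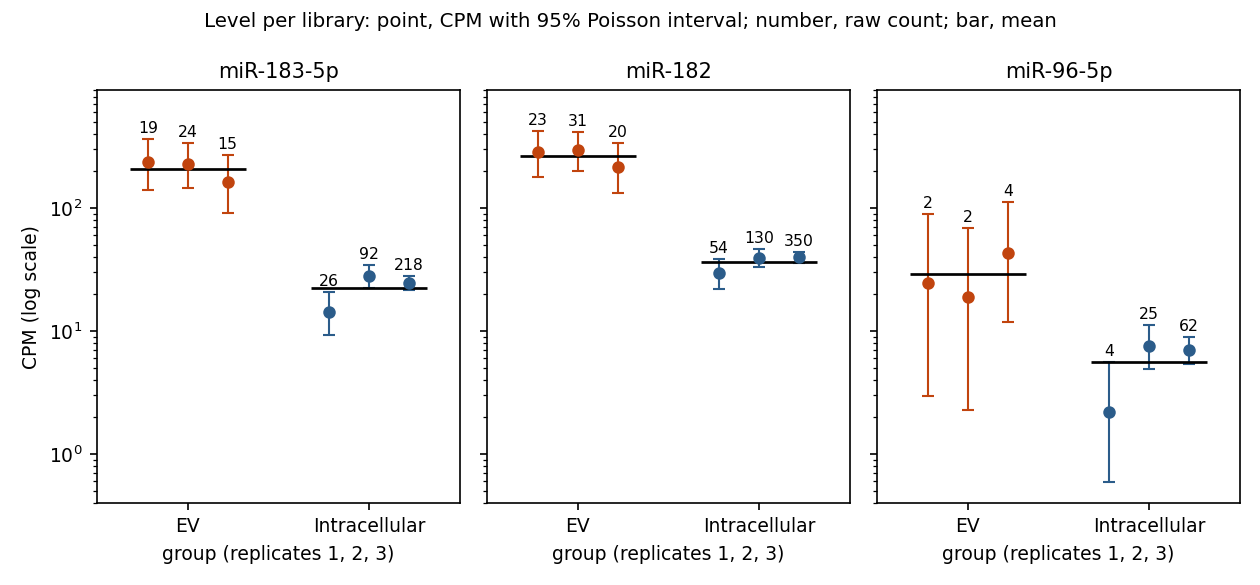
Level of each member in every library, in CPM on a log axis, with the exact 95% Poisson interval as error bar, the raw count above each point and the group mean as a black bar. EV points lie above Intracellular points for each member, and the intervals are widest for miR-96-5p, which has 2, 2 and 4 EV counts.

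Counts of all rows were tested with edgeR's quasi-likelihood test after TMM scaling, which sets a reference level from the bulk of the miRNAs. A call is a Benjamini-Hochberg adjusted p under 0.05 over the 328 rows that passed a filter on low counts. miR-183-5p had a log2 fold change of 2.61, EV minus Intracellular (SE 0.30, 95% interval 1.97 to 3.25, edgeR adjusted p = 1.01e-06). miR-182 had a log2 fold change of 2.24 (SE 0.27, 95% interval 1.67 to 2.81, edgeR adjusted p = 1.83e-06). Both differences were larger than the spread between replicates. The filter asked for 10.3 CPM in at least 3 libraries, and these 2 members reached that level in all 3 Intracellular as well as all 3 EV libraries. Both were thus called higher, against 25.6% of all 328 rows tested and 16.8% of the 232 rows that reached the level in all libraries of both groups. A further 60 rows reached the level in all 3 EV libraries but not in all 3 Intracellular ones. These are said below to pass the filter through the EV libraries alone, and 45 of them were called higher.

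miR-96-5p was among those 60 rows: no Intracellular library reached the level, so that it entered the test through the group in which it was high. Its log2 fold change was 1.71 (SE 0.67, 95% interval 0.30 to 3.12, edgeR adjusted p = 0.0481). Without a filter, over 1071 rows, its value was 1.56 and edgeR's adjusted p was 0.119. The call was lost when any 1 of the 3 EV libraries was left out (edgeR adjusted p 0.0592 to 0.309) and also without Intracellular replicate 2 (adjusted p 0.0505 with the tested rows kept). The call of miR-96-5p thus did not hold under these changes, although every value stayed above 0.

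Ranked by log2 fold change among the 290 known miRNAs tested, miR-183-5p was 17, miR-182 was 24 and miR-96-5p was 34. CPM of every EV library exceeded that of every Intracellular library for each of the 3 members, but also for 41.8% of all rows tested, so that the lack of overlap says little about the members.

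**Figure D2:**
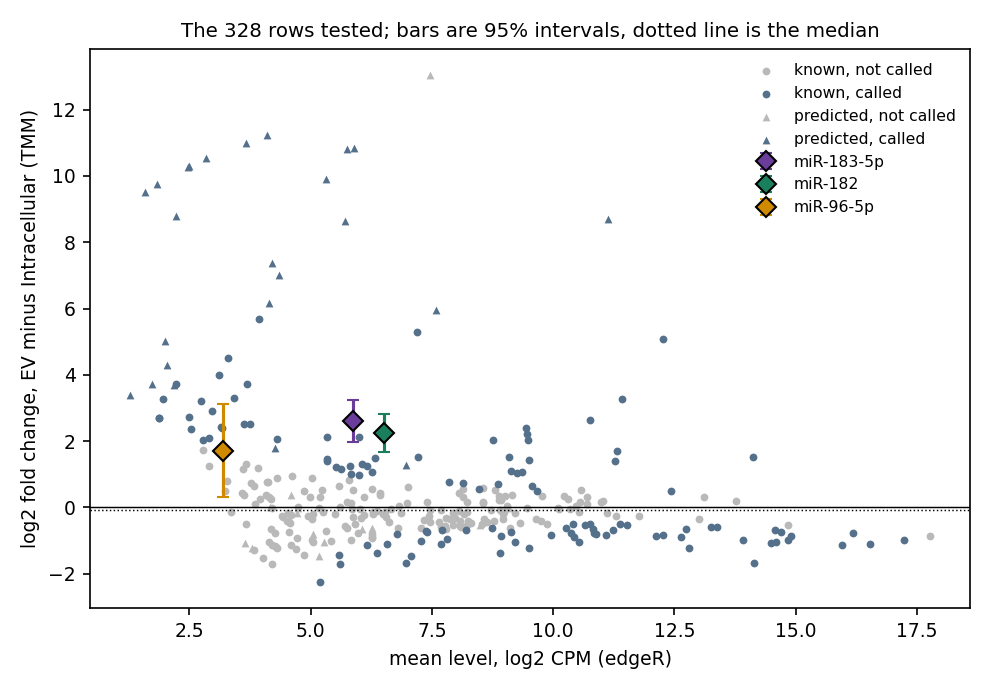
Log2 fold change (EV minus Intracellular, TMM scaling) against mean level in log2 CPM for the 328 rows tested, with the 3 members as diamonds with 95% intervals and the median of all rows as a dotted line. All 3 intervals lie above the median line, and that of miR-96-5p is the widest, from 0.30 to 3.12.

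The size of the rise depended on the scaling, and its direction did not. With total-count scaling the log2 fold change was 3.21 for miR-183-5p (SE 0.46, edgeR adjusted p = 9.64e-07), 2.87 for miR-182 (SE 0.42, adjusted p = 1.25e-06) and 2.28 for miR-96-5p (SE 0.76, adjusted p = 0.0177). The background moved too: the median log2 fold change was -0.06 with TMM and 0.55 with total counts, a shift of 0.61. The calls were 84 higher and 56 lower with TMM, and 107 higher and 3 lower with total counts, where 32.6% of rows were called higher and 0.915% lower, against 25.6% and 17.1% with TMM. Measured from the median of all rows, miR-183-5p stood at 2.68 with TMM and 2.66 with total counts, miR-182 at 2.30 and 2.32, and miR-96-5p at 1.78 and 1.74. A change of scaling shifts all rows by about the same amount, so these pairs are close by construction.

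Intracellular replicate 1 was the low library for all 3 members by CPM, and its TMM factor of 0.557 was also the lowest, where replicates 2 and 3 had 0.963 and 0.935. After division by the TMM-scaled totals, miR-183-5p was at 25.4, 28.8 and 26.3 scaled CPM in Intracellular replicates 1, 2 and 3. miR-182 was at 52.8, 40.7 and 42.3, so that replicate 1 became the highest. miR-96-5p was at 3.91, 7.83 and 7.49 and stayed lowest in replicate 1, with 4 counts there. In EV the same scaling gave 172.7, 180.9 and 138.6 for miR-183-5p and 209.1, 233.6 and 184.8 for miR-182. Without Intracellular replicate 1 and with the tested rows kept, the log2 fold change was 2.64 for miR-183-5p, 2.39 for miR-182 and 1.63 for miR-96-5p, each still called (edgeR adjusted p 1.07e-07, 1.07e-07 and 0.0426).

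**Figure D3:**
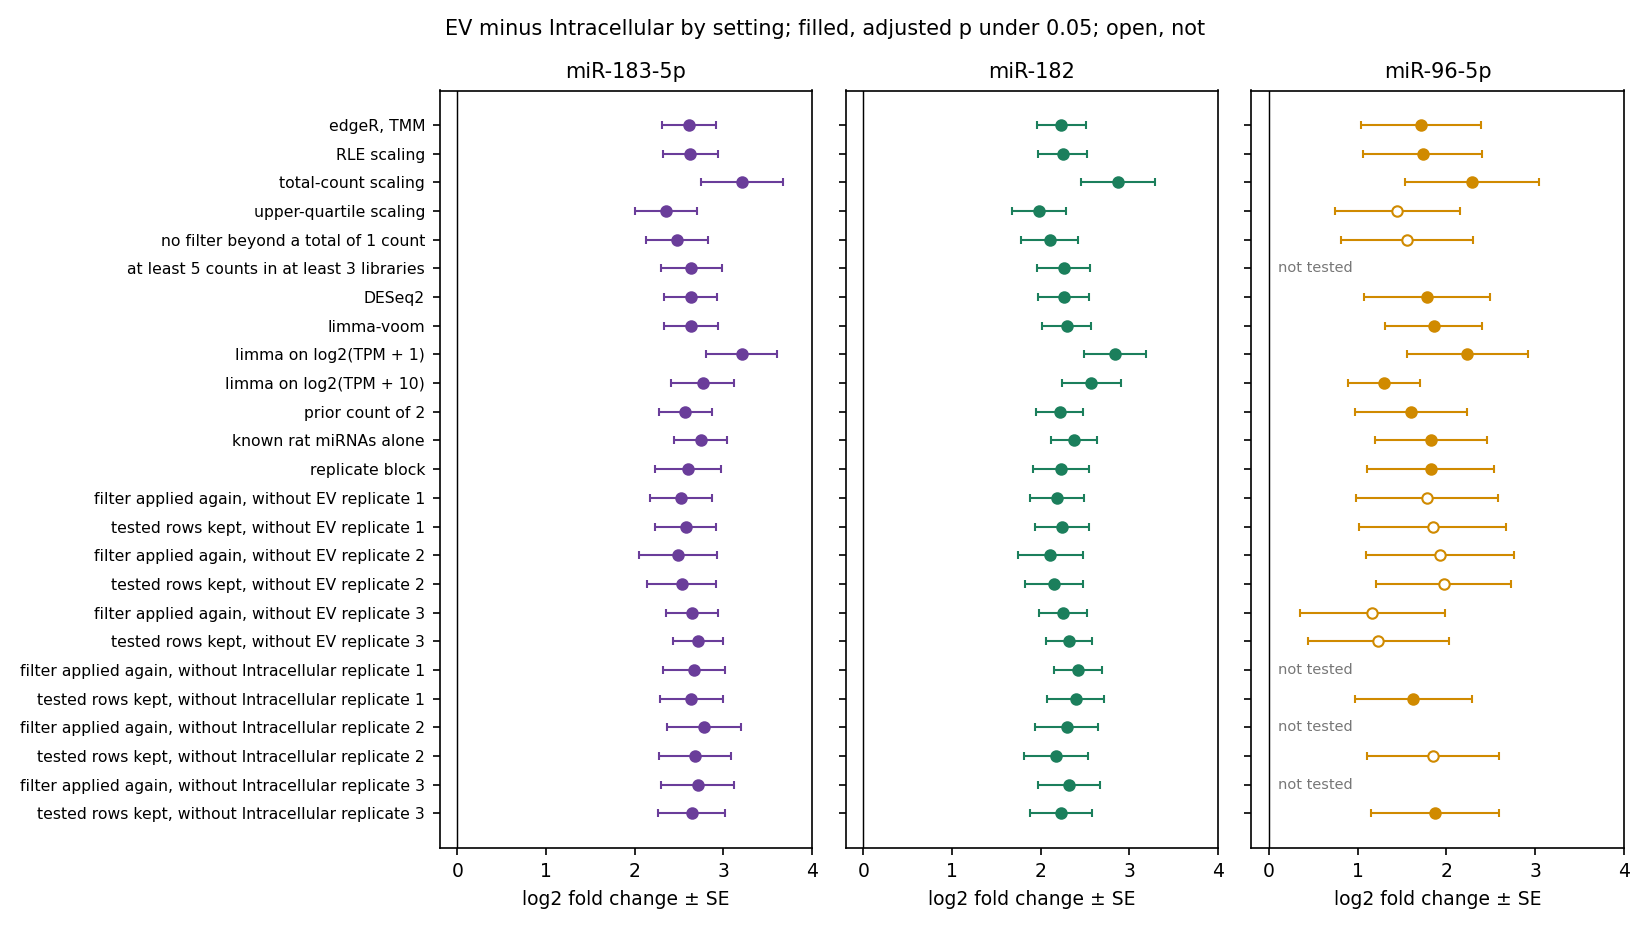
Log2 fold change of each member, EV minus Intracellular, with its SE under every scaling, filter, test and left-out library, where filled points have an adjusted p under 0.05 and open points do not. miR-183-5p stays between 2.35 and 3.21 and miR-182 between 1.98 and 2.87, all filled, while miR-96-5p has open points and 4 settings in which it was not tested.

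The 3 miRNAs come from the same precursor, and their proportions can be compared without any scaling. Together they made up 0.0542%, 0.0540% and 0.0422% of the counts in EV replicates 1, 2 and 3, and 0.00457%, 0.00746% and 0.00711% in Intracellular replicates 1, 2 and 3. Summed, this was 501 ± 68.4 CPM in EV and 63.8 ± 15.8 CPM inside the cells (SD, n = 3). As with the levels, the shares of different miRNAs also carry the preferences of adapter ligation. miR-182 took 52.3%, 54.4% and 51.3% of the cluster's counts in EV and 64.3%, 52.6% and 55.6% in Intracellular replicates 1, 2 and 3, and the groups overlapped. miR-183-5p took 43.2%, 42.1% and 38.5% in EV and 31.0%, 37.2% and 34.6% inside the cells, with no overlap. The exact (Clopper-Pearson) 95% intervals of its pooled shares, 33.2% to 50.1% in EV and 31.9% to 38.1% in Intracellular libraries, overlapped. miR-96-5p took 4.55%, 3.51% and 10.3% in EV and 4.76%, 10.1% and 9.84% inside the cells, so the groups overlapped. Its pooled shares were 5.71% (2.50% to 10.9%) and 9.47% (7.69% to 11.5%).

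The log2 ratio of miR-183-5p to miR-182 counts, with 0.5 added to each, was -0.27, -0.36 and -0.40 in EV replicates 1, 2 and 3. In Intracellular replicates 1, 2 and 3 it was -1.04, -0.50 and -0.68. The means were -0.345 ± 0.069 in EV and -0.740 ± 0.276 inside the cells (SD, n = 3), a difference of 0.39 (2-sided exact permutation p = 0.1, the smallest that 3 against 3 libraries can give). The difference fell to 0.24 without Intracellular replicate 1. The groups did not overlap, but the test cannot reach a p under 0.05 with these libraries.

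**Figure D4:**
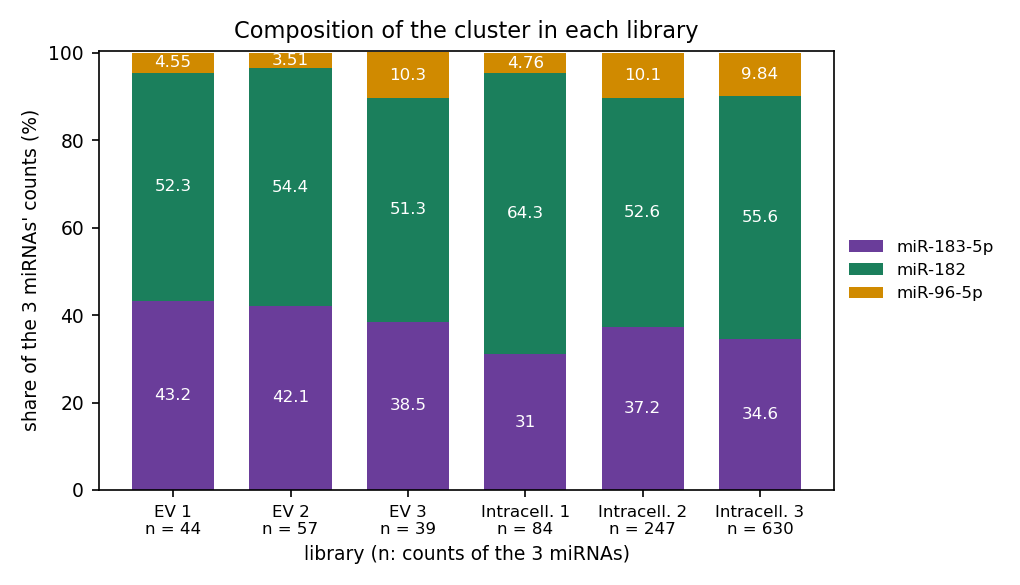
Share of each member in the summed counts of the 3 members, in percent, for each library, with the number of counts below each bar. miR-182 is the largest part and miR-96-5p the smallest in all 6 libraries, and EV bars rest on 39 to 57 counts.

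The known miRNAs whose level and pattern were closest to each member were found from the distance of log2(CPM + 1) over the 6 libraries, among 287 other tested known miRNAs. For miR-183-5p these were miR-501-3p of the Clcn5 intron cluster (distance 1.37), miR-342-3p, encoded within Evl (1.54), and miR-19b-3p of the miR-17-92 cluster and its paralog (1.72). miR-182 itself was at 1.44. miR-501-3p was at 132.2 ± 8.84 CPM in EV and 19.64 ± 1.35 CPM inside the cells, and miR-342-3p at 195.8 ± 79.7 and 28.41 ± 3.41 CPM (SD, n = 3). For miR-182 the closest were miR-484 (1.17), miR-19b-3p (1.52) and miR-296-3p (1.56), while miR-183-5p was at 1.44. The log2 fold changes of these 3 were 1.48, 1.31 and 1.07, below the 2.24 of miR-182. For miR-96-5p they were miR-665 (0.951), miR-126a-5p (1.45) and miR-671 (1.63), with 8, 5 and 5 EV counts. miR-96-5p was far from both other members in level (6.09 from miR-183-5p and 7.31 from miR-182).

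Calls among other miRNAs known from neurons and sensory organs went in both directions. Of 12 listed, 10 had a row and 7 were tested. By edgeR with TMM scaling 1 of the 7 was called higher and 2 lower, and total counts gave 2 calls, both higher. Over all 328 rows 25.6% were called higher and 17.1% lower with TMM, and 32.6% and 0.915% with total counts, so that the list was not far from the background. The median log2 fold change of the 7 was -0.15, against -0.06 for all rows tested. The 4 most abundant were miR-218a-5p, a motor neuron miRNA, with a log2 fold change of 0.16 (edgeR adjusted p = 0.594), miR-9a-5p, a miRNA of neural progenitors, with -0.89 (adjusted p = 0.0043), the neuronal miR-128-3p with -0.62 (adjusted p = 0.0154), and miR-7a-5p with 0.55 (adjusted p = 0.0783). The 1 higher call was miR-138-5p (3.28, adjusted p = 0.00237), named after its value was seen, which had 7 EV counts in all (1, 4 and 2). Like miR-96-5p it passed the filter through the EV libraries alone. miR-211-5p, miR-135b-5p and miR-137-3p had 0 counts in every EV library, which allows a level of up to 10.7 CPM (3 of 279118 counts). Their means inside the cells, 2.67, 0.538 and 0.113 CPM, were below that, so the 0 counts do not show a lower level in EV.

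The miR-183 cluster is also expressed in epithelial and neuroendocrine cells, whose markers were near the limit of detection. All 8 miRNAs of that list had a row and none was tested. Of these, miR-200a-3p, miR-200b-3p, miR-200c-3p, miR-141-3p, miR-429 and miR-205 had 0 counts in every EV library, where 0 of 279118 counts allows a level of up to 10.7 CPM (3 counts). Inside the cells the same 6 had 1 to 11 counts each in all. miR-203a-3p had 3, 0 and 3 EV counts and miR-375-3p 0, 1 and 0. The summed level of the list was 9.47 to 36.9 CPM for EV and 4.35 to 6.21 CPM inside the cells, against 422 to 542 and 45.7 to 74.6 CPM for the 3 members. The lowest EV sum was 1 count of miR-375-3p in replicate 2, and 1 EV count alone exceeds every Intracellular sum of the list.

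The labelled cell type was checked with 6 fibroblast and mesenchymal miRNAs, which together stood at 415400 to 424300 CPM in EV and 465300 to 490300 CPM inside the cells. By edgeR with TMM scaling 1 of the 6 was called higher and 4 were called lower (25.6% and 17.1% over all rows), while total counts gave 1 call, higher (32.6% over all rows). Beside the epithelial list, 3 lists of other sources had sums that were higher in every EV library than in every Intracellular one. Among single rows tested 41.8% did the same, so that this lack of overlap says little about the lists. The 4 erythroid miRNAs summed to 151.5 to 221.6 CPM in EV and 2.26 to 6.53 CPM inside the cells, with miR-144-3p and miR-144-5p at 0 in every EV library. As in the epithelial list, 0 EV counts allow up to 10.7 CPM, more than the mean of either inside the cells. The tested erythroid miRNAs, miR-451-5p and miR-486, were called higher. Both passed the filter through the EV libraries alone, as did 60 rows in all, of which 45 were called higher. The 3 liver and serum miRNAs with a row summed to 11610 to 14070 CPM and 397.1 to 476.3 CPM, and miR-122-5p was the 1 call, higher, of 3 tested, against 25.6% of all rows. The leukocyte list summed to 216.6 to 265.2 CPM and 63.62 to 169.9 CPM, with miR-142-5p and miR-223-3p at 0 in every EV library. Both were likewise below 10.7 CPM inside the cells. Most of the list's EV sum was miR-155-5p, at a mean of 209.1 CPM in EV and 90.57 CPM inside the cells. The other tested leukocyte miRNA, miR-142-3p, was at 14.52 and 20.84 CPM (log2 fold change -1.13, edgeR adjusted p = 0.264). Of these 2 tested miRNAs edgeR with TMM called 0. The 1 at an unadjusted p under 0.05 was miR-155-5p, which was called with total counts and with limma on log2(TPM + 1). The fibroblast and mesenchymal sum was lower in every EV library than in every Intracellular one. The sums of the remaining lists overlapped between the groups. Of the muscle list (110.8 to 246.3 and 89.72 to 181.7 CPM), 2 were tested. By edgeR with TMM miR-206-3p, which passed the filter through the EV libraries alone, was called higher and miR-499-5p lower. Over all rows these shares were 25.6% and 17.1%. With total counts miR-206-3p kept its call and miR-499-5p lost it (edgeR adjusted p = 0.167), against 32.6% higher and 0.915% lower over all rows. Among the 2 tested of the Schwann cell and myelinating glia list (21.7 to 104.2 and 20.7 to 46.1 CPM) and the 2 of the endothelial list (259.9 to 435.7 and 141.4 to 390.3 CPM), edgeR with TMM or total counts, DESeq2 and limma called 0, and 0 had an unadjusted p under 0.05 by edgeR with TMM. The part of RNA from such other sources in the rise of the members was not tested.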

How the data were processed

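Small RNA of 3 EV and 3 Intracellular samples was sequenced after ligation of adapters to both ends and PCR, per the labels' protocols. Per the submitters' processing notes the authors used cutadapt and build Rnor_6.0. No source used here gives the aligner, the miRNA database or the counting program. The authors deposited raw counts of 552 known and 519 predicted mature miRNAs. Their deposited TPM values were found to be the same counts per 1000000 of a library's total, to within 4.8e-05 and without a length term. Columns were matched to samples by the group and replicate number in their names.

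Counts were tested with edgeR 4.0.16 (R 4.3.3): TMM, filterByExpr (minimum count 10 at the median library size, minimum total 15), robust quasi-likelihood, EV minus Intracellular, no replicate block, 2-sided, Benjamini-Hochberg over all rows tested. SEs come from the F statistic. The procedure was checked on simulated data with as many raised as lowered miRNAs, which does not probe the choice of scaling. Alternatives were other scalings and filters, DESeq2 1.42.0, limma 3.58.1 (voom, and log2(TPM + 1) and log2(TPM + 10)), a larger prior count, known miRNAs alone, a replicate block and each library left out. Named miRNAs were the 3 members, the 3 nearest patterns of each, and up to 4 members by mean CPM of the sensory list. miR-138-5p, and all miRNAs named from the other lists, were named after their values were seen. The members and lists were chosen with earlier results of these data known. Sequences and positions are from RefSeq's GRCr8 tables, in which all 3 members were matched by name.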

Additional observations from a re-analysis of the deposited data

How the results depend on the processing

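miR-183-5p and miR-182 kept their direction and their call in all 24 alternatives each, with edgeR, DESeq2 or limma adjusted p of at most 0.00012 and 0.000134. Without a library the log2 fold change was 2.49 to 2.78 for miR-183-5p and 2.11 to 2.42 for miR-182. miR-96-5p stayed above 0 in the 20 alternatives that tested it, with an adjusted p range of 0.012 to 0.309, and lost its call in 9. These were upper-quartile scaling (1.44, edgeR adjusted p 0.0817), no filter (1.56, adjusted p 0.119) and 7 of the 9 fits without a library (1.16 to 1.97). With at least 5 counts asked for in 3 libraries, or without an Intracellular library and the filter applied again, it was not tested. The difference in the log2 ratio of miR-183-5p to miR-182 was 0.244 to 0.516 without a library.

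Over all rows, 84 miRNAs were called higher and 56 lower. No filter gave 197 higher, and leaving out a library gave 50 to 91 higher and 18 to 58 lower. Lower calls numbered 3 with total-count scaling, 92 with upper-quartile scaling, 4 and 4 with limma on log2(TPM + 1) and log2(TPM + 10), and 37 with known miRNAs alone. The cause was not tested.

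The labels link same-numbered EV and Intracellular libraries by a replicate number alone. Their deviations from the group means correlated at 0.0348, 0.0921 and -0.0195. The Intracellular library of the same number was the best match for EV replicates 1 and 2 but not for replicate 3. With 3 replicates and few EV counts, these correlations can neither show nor exclude a pairing. With the replicate block 87 were called higher and 46 lower, miR-183-5p and miR-182 had log2 fold changes of 2.60 and 2.23 and kept their calls, miR-96-5p, which entered the test through the EV libraries alone, was at 1.82 (edgeR adjusted p 0.0312), and the ratio differed by 0.394 (exact sign-flip permutation p = 0.25, the smallest possible).

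Depth limits miR-96-5p most, with 8 EV counts in all, and 1 EV count is at least 9.47 CPM.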
